A study of Mus musculus with 12 samples.

Results

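The genes described here are the 8 Dlx and Msx homeobox genes Dlx1, Dlx2, Dlx3, Dlx4, Dlx5, Dlx6, Msx1 and Msx2, which were taken by name as genes of jaw and neural border patterning. The naming rule uses no measured value, but it was set with earlier results of these data known. They are 8 of 24060 gene rows, measured by RNA sequencing in 12 rhabdoid tumors (RTs) of P0-CreC;Smarcb1flox/flox mice on an FVB/N background. Smarcb1, a core subunit of the SWI/SNF chromatin remodeling complex, was deleted in all of these mice by Cre recombinase under the P0 promoter, which is active in neural crest cells and in the Schwann cell lineage, and all 12 tumors share this genotype, so that tissue without the deletion is not analysed here. The tumors were labelled retro-orbital (4), cheek (3), meninges (3), vestibular nerve (1) and trigeminal nerve (1), and they arose without any treatment. The ages of the mice are not given in the labels.

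Some features of the libraries touch the values below. Cheek 2 and cheek 3 share the first part of their sample name, as do cheek 1 and meninges 1, and retro-orbital 3 and the trigeminal nerve tumor. Whether a shared name means a shared mouse is not stated, so p-values measure the spread between these tumors. Of the pairs of tumors of a location, cheek 2 and cheek 3 had the lowest chi-square per degree of freedom between their fragment counts. It was 33.2, against 129 to 434 for the other pairs. This measure grows with the number of fragments, and cheek 3 had the fewest, so it does not rank the pairs by likeness alone. Cheek 3 with cheek 1 gave 201. Cheek 2 and cheek 3 were counted as 2 samples, and whether they are independent was not tested. Smarcb1 RNA was listed at 1.70 to 6.31 RPKM in the 12 tumors (median 4.61), and the labels give no way to tell RNA of the floxed allele, of tumor cells or of other cells in the mass apart. The recovered fragment totals were 13206168 to 57128422 per tumor, and the 8 genes had 0 to 1545 fragments in a tumor.

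Dlx genes encode transcription factors whose homeodomain binds TAATTA-like sites, and in the mouse they lie as 3 pairs of convergently transcribed genes that share enhancers. In the branchial arches their nested expression gives cranial neural crest cells their position along the jaw, with Dlx1 and Dlx2 throughout the arch and Dlx5, Dlx6, Dlx3 and Dlx4 toward its ventral end. Msx1 and Msx2, related homeodomain repressors induced by bone morphogenetic protein (BMP) signals, are unlinked and mark the neural plate border, the arch mesenchyme, the teeth and the skull sutures. Outside the crest, Dlx1, Dlx2, Dlx5 and Dlx6 are known from GABAergic interneurons, Dlx3 from epidermis, placenta and teeth, and Dlx5 and Msx2 from bone.

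In GENCODE M21, on GRCm38 (the assembly that mm10 names), Dlx1 (ENSMUSG00000041911.3) is at chr2:71528113-71533981 on the plus strand and Dlx2 (ENSMUSG00000023391.8) at chr2:71543408-71546754 on the minus strand, 9426 bases apart. Dlx3 (ENSMUSG00000001510.8) is at chr11:95120119-95125296 on the plus strand and Dlx4 (ENSMUSG00000020871.8) at chr11:95140447-95146263 on the minus strand, 15150 bases apart. Dlx5 (ENSMUSG00000029755.10) is at chr6:6877805-6882085 on the minus strand and Dlx6 (ENSMUSG00000029754.13) at chr6:6863334-6868568 on the plus strand, 9236 bases apart. Msx1 (ENSMUSG00000048450.10) is at chr5:37820485-37824583 and Msx2 (ENSMUSG00000021469.9) at chr13:53466884-53473074, both on the minus strand.

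The promoters of Dlx2 and Msx1 are shown because Dlx2 followed its neighbour Dlx1 over the tumors and Msx1 was the gene whose values lay apart between the locations. The windows of Dlx1 and Msx2 are not printed, because they lie inside longer GENCODE transcripts of these genes. Each line gives the 250 bases before the RefSeq start on GRCm38.p6, 5′ to 3′ on the strand of the gene, from chr2:71546755-71547004 (minus strand) for Dlx2 and chr5:37824586-37824835 (minus strand) for Msx1. Capitals mark the CCAAT box (CCAAT or ATTGG) and the letters GGCGCC.
Dlx2: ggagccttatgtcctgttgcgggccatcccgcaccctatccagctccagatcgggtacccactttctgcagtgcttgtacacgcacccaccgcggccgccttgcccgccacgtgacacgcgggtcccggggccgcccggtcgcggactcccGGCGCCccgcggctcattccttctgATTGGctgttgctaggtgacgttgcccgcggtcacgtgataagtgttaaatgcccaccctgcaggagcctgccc
Msx1: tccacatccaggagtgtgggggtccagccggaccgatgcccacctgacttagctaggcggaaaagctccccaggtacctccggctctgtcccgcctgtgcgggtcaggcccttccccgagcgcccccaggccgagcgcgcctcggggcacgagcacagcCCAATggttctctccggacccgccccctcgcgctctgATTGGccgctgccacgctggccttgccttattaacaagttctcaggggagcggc
CCAAT was searched on both strands and stood at 1 place in the Dlx2 window and at 2 places in the Msx1 window. Of 32851 RefSeq promoter windows of the same length, 33.8% held it. GGCGCC, which reads the same on both strands, stood once in the Dlx2 window and in 9.59% of all windows. TAATTA, the same on both strands, was in neither sequence shown, at 1 place in the Msx2 window, 187 bases before the start, and in 4.84% of all windows. Both sequences were rich in G and C, at 66.4% for Dlx2 and 68% for Msx1, against a median of 52.4% over all windows.

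All 8 genes reached 1 RPKM (fragments scaled to the length of the gene and to the size of the library) in at least 3 of the 12 tumors, and none did so in all 12. Dlx1 and Msx1 reached it in 7 tumors, Dlx2 and Dlx3 in 6, and Dlx4, Dlx5, Dlx6 and Msx2 in 3 each. Median levels per length over the 12 tumors were low, from 0.169 RPKM for Dlx4 to 1.10 RPKM for both Dlx1 and Msx1. The highest tumor stood far above the median for each gene, from 6.96 times for Msx2 to 25.1 times for Dlx4. On the log2(RPKM + 1) scale the SD over the 12 tumors was 1.58 for Msx1 and 1.54 for Dlx3, larger than that of 96.6% and 96.3% of the 15043 genes that reached 1 RPKM in at least 3 tumors, while Msx2, at 0.61, varied least of the 8 and exceeded 64.2% of them. Different tumors carried the maxima, with the vestibular nerve tumor highest in Dlx1 and Dlx2, meninges 1 in Dlx3, cheek 1 in Dlx4, meninges 3 in Dlx5, Dlx6 and Msx2, and cheek 3 in Msx1.

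**Figure D1:**
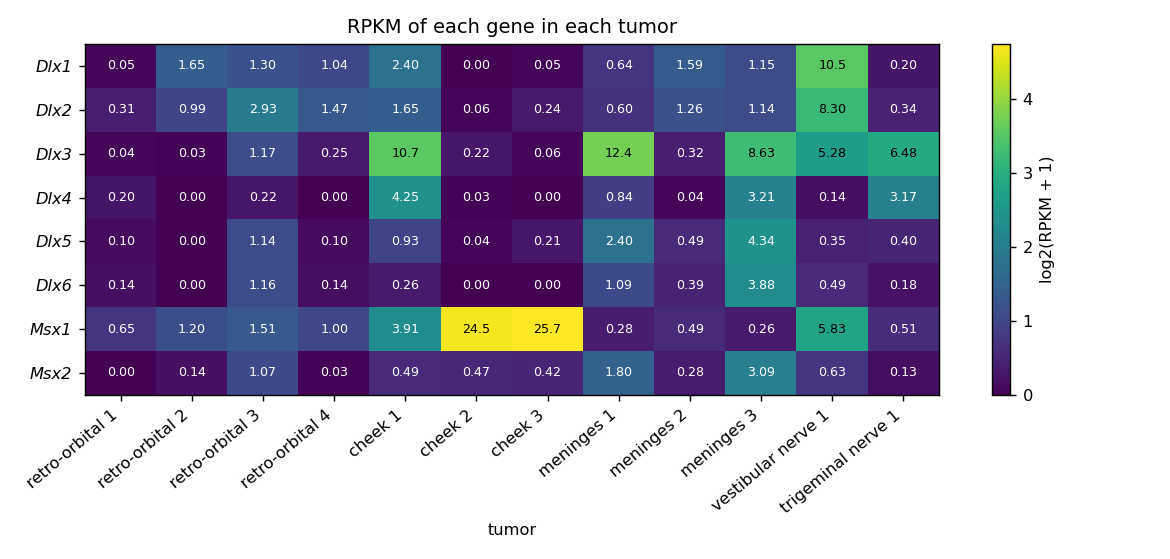
RPKM of the 8 genes (rows) in the 12 tumors (columns), printed in each cell and shaded by log2(RPKM + 1). The brightest cells are Msx1 in cheek 2 and cheek 3, and no tumor is bright in all 8 rows.

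Msx1 was the only one of the 8 genes for which each of the 3 larger locations lay apart from both others. It measured 3.91, 24.5 and 25.7 RPKM in cheek 1, 2 and 3. The retro-orbital tumors had 0.65, 1.20, 1.51 and 1.005 RPKM, and the meninges tumors had 0.28, 0.49 and 0.26 RPKM, where the lowest value rested on 9 fragments. Every cheek tumor was thus above every retro-orbital tumor and every retro-orbital tumor above every meninges tumor. The cheek tumors were entirely above both other locations in 2.56% of the 14745 genes tested, and the full order cheek, retro-orbital, meninges without overlap was found in 0.0610% of them. Both patterns were picked after the values of Msx1 were seen. The share of genes with the 3 locations apart in any order, which would be at least as large as 0.0610%, was not computed. Means were 18.0 ± 12.3 RPKM in cheek (SD, n = 3), 1.09 ± 0.36 in retro-orbital (SD, n = 4) and 0.35 ± 0.13 in meninges tumors (SD, n = 3). The vestibular nerve tumor, at 5.83 RPKM, lay between cheek 1 and cheek 2, and the trigeminal nerve tumor, at 0.51 RPKM, just above the meninges tumors.

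On the log2(RPKM + 1) scale Msx1 was 2.85 ± 0.54 (SE) higher in cheek than in retro-orbital tumors and 3.48 ± 0.58 (SE) higher in cheek than in meninges tumors (limma). Neither difference passed the threshold over all genes, with Benjamini-Hochberg adjusted p = 0.163 and 0.0783, and the limma F test over the 3 locations gave an adjusted p of 0.122 (unadjusted p = 0.000304). The call changed with the cheek tumors fitted and with the treatment of shared names. Without cheek 1 the F test passed (adjusted p = 0.00181), in a fit that called 198 of all 14530 genes in place of 6 of 14745, and without cheek 2 or cheek 3 it gave adjusted p = 0.545 and 0.533. With cheek 2, but neither cheek 3 nor meninges 1, so that 1 tumor stood for each shared name, it was 0.875. In these fits the F test called 0 genes at all, of 14646 without cheek 2, 14623 without cheek 3 and 14271 with 1 tumor per shared name. With the shared names as a random block the differences were smaller, at 2.03 against retro-orbital (limma adjusted p = 0.525) and 2.13 against meninges tumors (adjusted p = 0.000603), and the F test gave an adjusted p of 0.00205.

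Msx2 did not follow Msx1. It measured 0.49, 0.47 and 0.42 RPKM in the cheek tumors, where Msx1 was highest. In the meninges it had 1.80, 0.28 and 3.09 RPKM, and in the retro-orbital tumors 0, 0.14, 1.07 and 0.03 RPKM. The vestibular nerve tumor had 0.63 RPKM and the trigeminal nerve tumor 0.13 RPKM. The 3 tumors above 1 RPKM, meninges 3, meninges 1 and retro-orbital 3, were also the 3 highest for Dlx5 and Dlx6. The meninges minus retro-orbital difference was 0.97 ± 0.42 (SE) on the log2 scale, with an adjusted p of 0.541 in limma.

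Dlx1 and Dlx2, the pair of the whole arch, were both highest in the vestibular nerve tumor, at 10.5 and 8.30 RPKM. Dlx1 had 0.05, 1.65, 1.30 and 1.04 RPKM in the retro-orbital tumors, 2.40, 0 and 0.05 in the cheek tumors and 0.64, 1.59 and 1.15 in the meninges tumors, with 0.20 in the trigeminal nerve tumor. Dlx2 had 0.31, 0.99, 2.93 and 1.47 RPKM in the retro-orbital tumors, 1.65, 0.06 and 0.24 in the cheek tumors and 0.60, 1.26 and 1.14 in the meninges tumors, with 0.34 in the trigeminal nerve tumor. Both were lowest in cheek 2, where Dlx1 had no fragment and Dlx2 had 5. At the depth of cheek 2, 3 fragments of Dlx1 would be worth 0.0331 RPKM, so that a level up to this value was not detectable. Ranges of the 3 locations overlapped for both genes, and the limma differences ran from -0.56 ± 0.44 (SE) for Dlx2 in cheek against retro-orbital tumors to 0.14 ± 0.49 (SE) for Dlx1 in meninges against retro-orbital tumors, with adjusted p from 0.625 to 0.943.

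Dlx3 and Dlx4 split the tumors into a set with and a set nearly without their RNA, in a way that cut across location. Dlx3 had 10.7 RPKM in cheek 1 but 0.22 and 0.06 in cheek 2 and cheek 3, and 12.4 and 8.63 in meninges 1 and 3 but 0.32 in meninges 2. The vestibular and trigeminal nerve tumors had 5.28 and 6.48 RPKM, and the retro-orbital tumors only 0.04, 0.03, 1.17 and 0.25. Dlx3 was thus above 5 RPKM in 5 tumors and below 2 RPKM in 7, with none between. Dlx4 reached 4.25 RPKM in cheek 1, 3.21 in meninges 3, 3.17 in the trigeminal nerve tumor and 0.84 in meninges 1, which are 4 of the 5 tumors with high Dlx3. In the vestibular nerve tumor, the fifth of them, Dlx4 was at 0.14 RPKM (7 fragments), and in the other 7 tumors it was at 0 to 0.22 RPKM. Dlx4 reached 1 RPKM in only 2 of the 10 tumors of the 3 larger locations and was therefore not in the test. The Dlx3 differences were 0.92 ± 0.98 (SE) for cheek and 2.09 ± 0.98 (SE) for meninges against retro-orbital tumors on the log2 scale, with limma adjusted p = 0.723 and 0.556.

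Dlx5 and Dlx6, the ventral arch pair, were low except in 3 tumors. Dlx5 had 2.40, 0.49 and 4.34 RPKM in the meninges tumors, 0.10, 0, 1.14 and 0.10 in the retro-orbital tumors and 0.93, 0.04 and 0.21 in the cheek tumors. Dlx6 had 1.09, 0.39 and 3.88 RPKM in the meninges tumors, 0.14, 0, 1.16 and 0.14 in the retro-orbital tumors and 0.26, 0 and 0 in the cheek tumors. The vestibular nerve tumor had 0.35 RPKM of Dlx5 and 0.49 of Dlx6, and the trigeminal nerve tumor 0.40 and 0.18. Retro-orbital 3 was the one retro-orbital tumor with a level like that of the meninges tumors. Every meninges tumor had more Dlx6 than every cheek tumor, as was true of 19.2% of all genes tested, whereas for Dlx5 the meninges tumors overlapped with cheek 1. Dlx5 differed by 1.24 ± 0.47 (SE) between meninges and retro-orbital tumors and by -1.16 ± 0.50 (SE) between cheek and meninges tumors, and Dlx6 by 0.90 ± 0.44 (SE) and -1.16 ± 0.47 (SE), with limma adjusted p between 0.264 and 0.564.

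**Figure D2:**
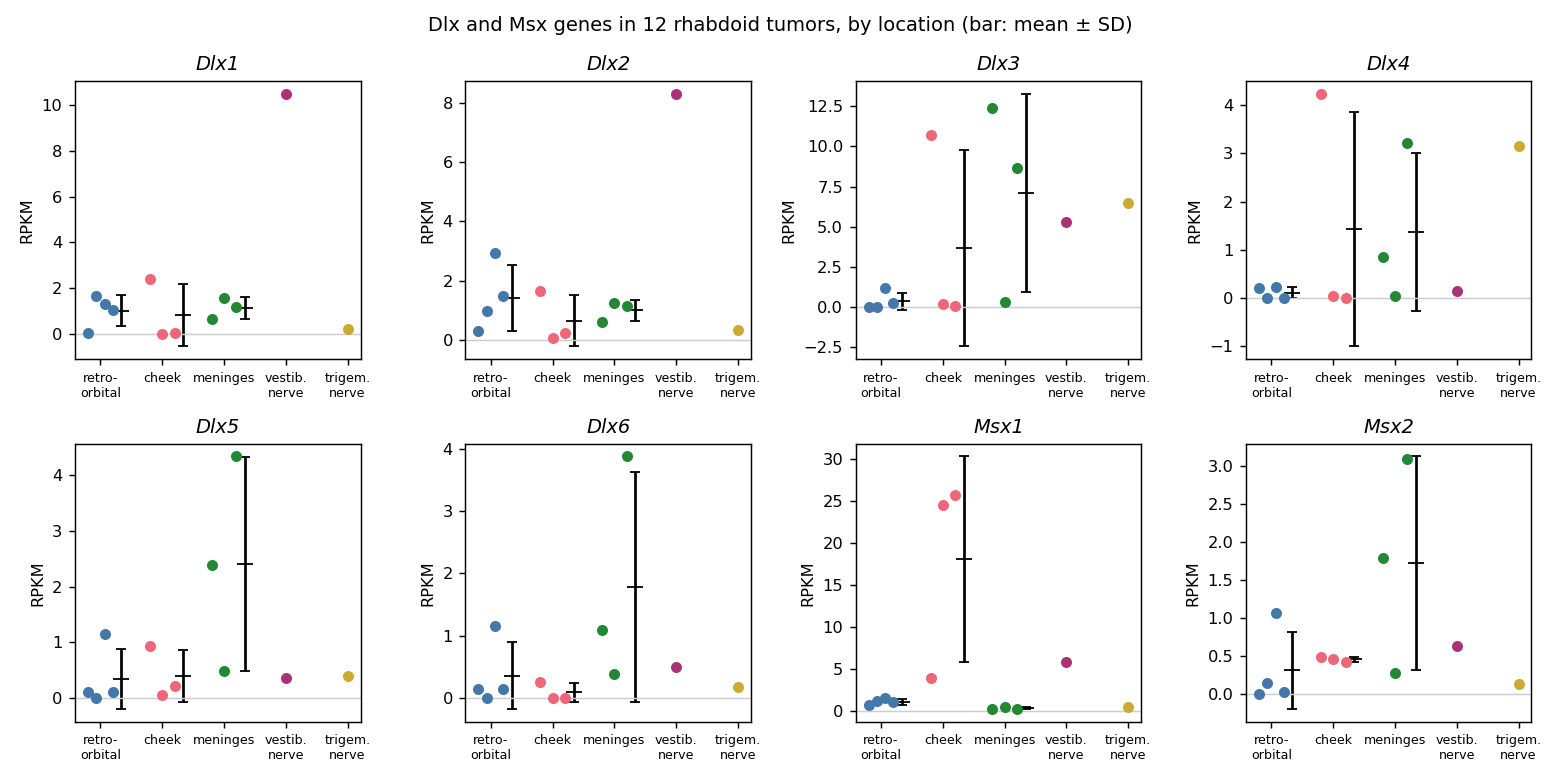
RPKM of each gene (vertical axes, linear, each with its own range) by tumor location (horizontal axis). Points are tumors, and black bars are the mean ± SD of the locations with more than 1 tumor; bars can pass below 0 because the SD exceeds the mean. Only the Msx1 panel has 3 locations without overlap.

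Over the 3 locations, 0 of the 7 genes tested were called by the limma F test at an adjusted p of 0.05, where 0.0407% of all 14745 genes were called. In cheek against retro-orbital tumors 0 of 7 were called (0.0271% of all genes), in meninges against retro-orbital tumors 0 of 7 (0.0203%) and in cheek against meninges tumors 0 of 7 (0.0475%). At an unadjusted p under 0.05 the counts were 1, 1, 2 and 3 of 7, beside 14.3%, 12%, 9.14% and 17% of all genes. The 3 comparisons share their tumors and are not independent of each other. The 3 genes in cheek against meninges tumors were Msx1, higher in cheek, and Dlx5 and Dlx6, lower in cheek. The unadjusted 95% intervals of the uncalled differences were wide, for example from -1.27 to 3.11 for Dlx3 in cheek against retro-orbital tumors, and differences of that size could not be told from the spread between tumors. The genes that passed the filter had to be above 1 RPKM in 3 tumors, which for Dlx5, Dlx6 and Msx2 were meninges 1, meninges 3 and retro-orbital 3. With the shared names as a random block in limma, the F test called 3 of the 7, Msx1, Dlx5 and Msx2, but it then also called 2802 of all 14745 genes, with an estimated correlation of 0.93 that rests on 2 pairs of tumors.

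**Figure D3:**
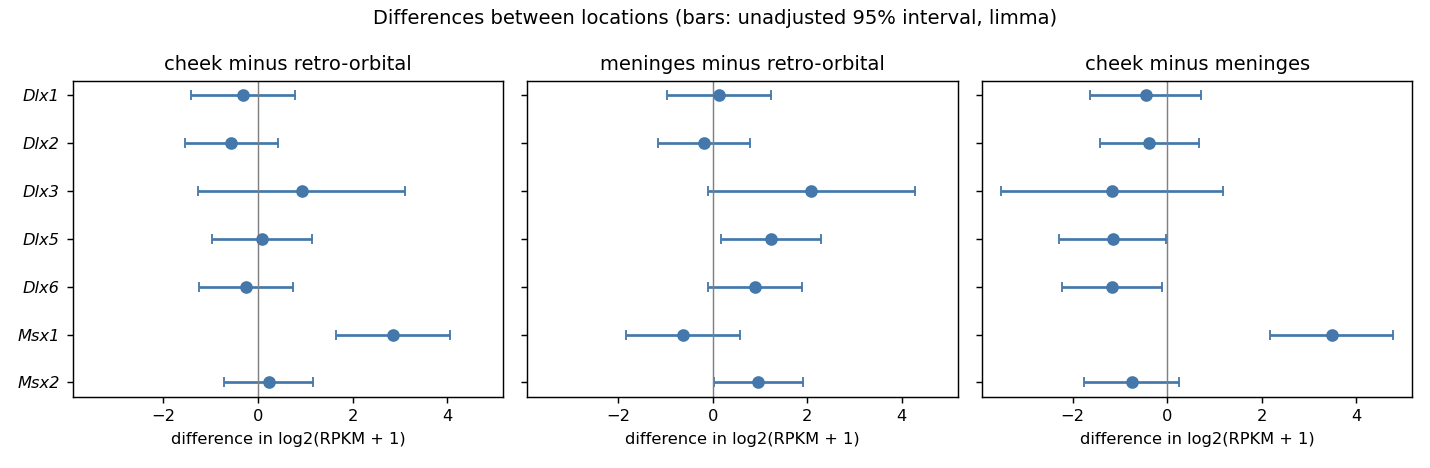
Differences in log2(RPKM + 1) between locations for the 7 genes in the test (points), with unadjusted 95% intervals from limma (bars). The intervals of Msx1 lie above 0 in both comparisons with the cheek tumors, from 1.64 to 4.06 against retro-orbital and from 2.18 to 4.77 against meninges tumors.

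A further comparison was whether the genes moved together over the tumors, and whether the linked pairs did so. Pearson's r of log2(RPKM + 1) was computed over the 12 tumors for all 28 pairs of the 8 genes, with 2-sided permutation p-values from 100000 resamples. Both r and Spearman's rho passed an adjusted p of 0.05 in 6 of the 28 pairs, which were Dlx1 with Dlx2, Dlx3 with Dlx4 and with Dlx5, Dlx5 with Dlx6, and Msx2 with Dlx5 and with Dlx6. How many pairs of other genes would pass in the same tumors was not computed, so this count is a description. Tumors that share a name were counted as separate tumors here.

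Dlx1 and Dlx2 had r = 0.94 (permutation p = 0.00011, adjusted p = 0.00154) and rho = 0.87 (permutation p = 0.00064, adjusted p = 0.00896). Without the 2 tumors farthest from the median of Dlx1 r was 0.80, without the vestibular nerve tumor it was 0.84, and with 1 tumor per shared name 0.93. Taken as differences from the mean of their location, the 10 tumors of the 3 larger locations gave r = 0.84. Of 15042 other genes, Dlx2 had the highest r with Dlx1, and Dlx1 the highest with Dlx2.

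Dlx5 and Dlx6 had r = 0.94 (permutation p = 1e-04, adjusted p = 0.00154) and rho = 0.90 (permutation p = 0.00017, adjusted p = 0.00476). Without the 2 tumors farthest from the median of Dlx5 r was 0.81, with 1 tumor per shared name 0.96 and within locations 0.93. Dlx6 had the highest r with Dlx5 of all 15042 genes, and Dlx5 ranked 4th for Dlx6.

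Dlx3 and Dlx4 had r = 0.81 (permutation p = 0.00153, adjusted p = 0.00857) and rho = 0.81 (permutation p = 0.00229, adjusted p = 0.016). Without the 2 tumors farthest from the median of Dlx3 r was 0.82, with 1 tumor per shared name 0.85 and within locations 0.87. These values set the 5 tumors with high Dlx3 against the other 7. Among the 7 tumors under 2 RPKM of Dlx3 alone, a division made after the values were seen, their r was 0.55 (exact permutation p = 0.199) and their rho was 0.48 (exact permutation p = 0.288). These 7 tumors had at most 23 fragments of Dlx4.

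The 3 Dlx pairs can be set beside other neighbours in the genome. Among 5625 pairs of adjacent protein-coding genes at most 20 kb apart, in the RefSeq annotation of GRCm38.p6, the median r over the same tumors was 0.28. An r as high as that of Dlx1 and Dlx2 was found in 0.587% of them, as high as that of Dlx5 and Dlx6 in 0.676%, and as high as that of Dlx3 and Dlx4 in 5.65%. These shares describe the 12 tumors, since all pairs come from the same libraries.

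Msx1 and Msx2, which are on different chromosomes, had r = -0.16 (permutation p = 0.639, adjusted p = 0.814) and rho = -0.07 (permutation p = 0.833, adjusted p = 0.898). Without the 2 tumors farthest from the median of Msx1 r was -0.18, and with 1 tumor per shared name -0.0973. Msx2 instead followed the ventral arch pair, with r = 0.93 for Dlx5 (permutation p = 0.00022, adjusted p = 0.00205) and 0.91 for Dlx6 (permutation p = 0.00034, adjusted p = 0.00238). Their rho was lower, at 0.72 (permutation p = 0.0109, adjusted p = 0.0436) and 0.70 (permutation p = 0.0151, adjusted p = 0.0471). Without the 2 tumors farthest from the median of Msx2, r fell to 0.68 with Dlx5 and to 0.69 with Dlx6, and within locations it was 0.92 with both. With 1 tumor per shared name r was 0.93 with Dlx5 and 0.94 with Dlx6. Of all 15042 genes, Dlx5 and Dlx6 had the highest and the second highest r with Msx2.

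**Figure D4:**
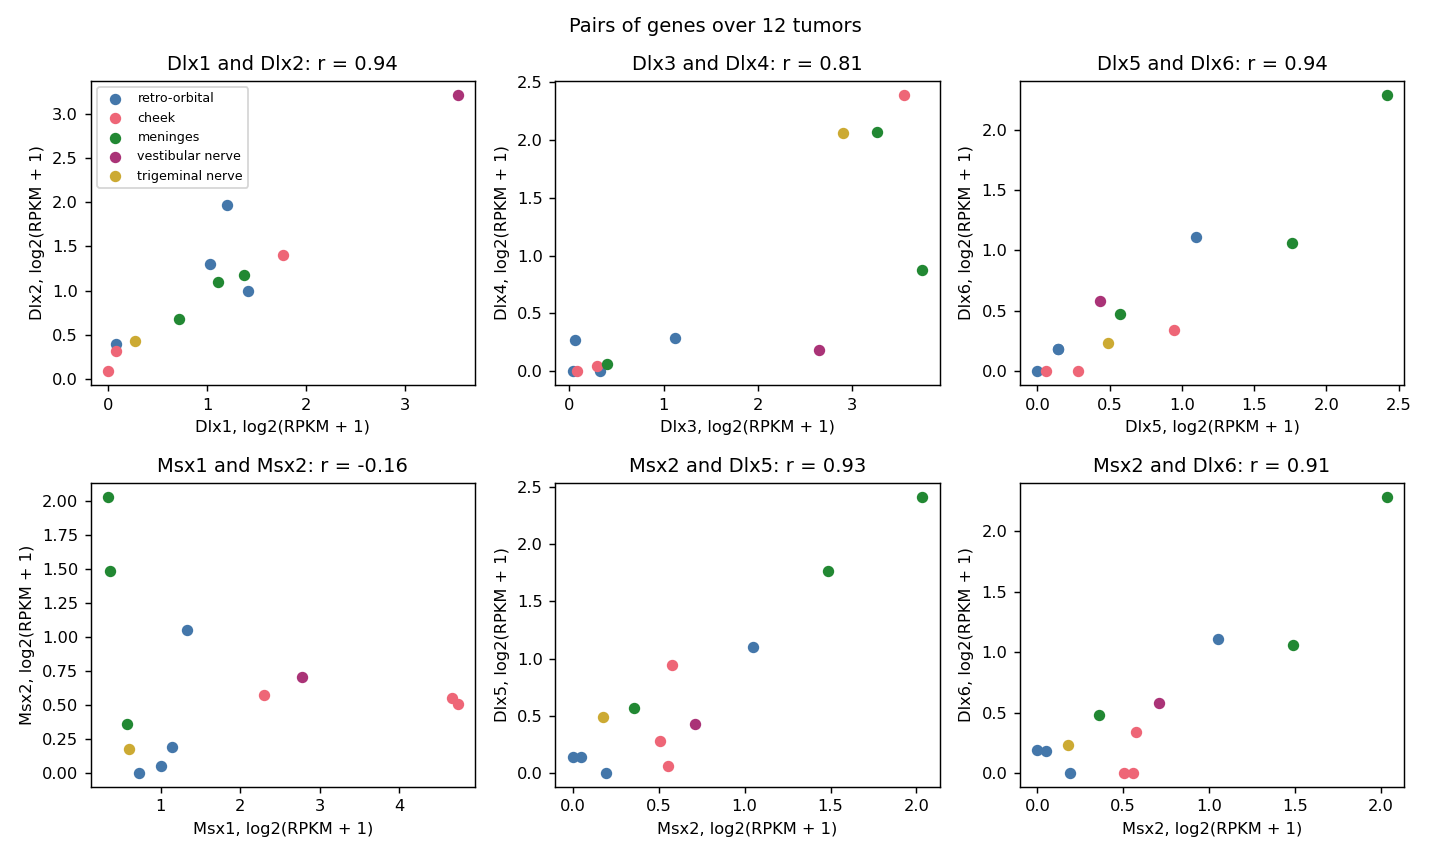
log2(RPKM + 1) of one gene against another in the 12 tumors, coloured by location, for the 3 Dlx pairs, the Msx pair, and Msx2 with Dlx5 and Dlx6. Dlx1 and Dlx2, and Dlx5 and Dlx6, rise together with r = 0.94 each, the Dlx3 and Dlx4 panel (r = 0.81) has 5 tumors apart from the other 7, and Msx1 and Msx2 show no common order (r = -0.16).

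Antisense transcripts of the members were listed under their own symbols. Msx1os, which RefSeq places at chr5:37820564-37822751 on GRCm38.p6, within the span of Msx1, had 0.95, 3.88 and 3.22 RPKM in the cheek tumors, 1.43 in the vestibular nerve tumor and at most 0.28 in the other 8, and followed Msx1 with r = 0.993. A730090H04Rik, which RefSeq also names Dlx4os, followed Dlx4 with r = 0.993, with 4.01 RPKM in cheek 1, 4.70 in meninges 3 and 4.09 in the trigeminal nerve tumor. Dlx6os1, also known as Evf2, a noncoding RNA of the Dlx5 and Dlx6 enhancer, followed Dlx6 with r = 0.975 and reached 1.64 RPKM in meninges 3. Dlx1as followed Dlx1 with r = 0.936, at 5.51 RPKM in the vestibular nerve tumor, although in retro-orbital 2 it stood at 1.69 RPKM against 0.17 to 0.43 in the other retro-orbital tumors. Dlx6as2 had at most 10 fragments in any tumor. The library kit keeps the strand, but whether the counting used it is not stated, so reads of these overlapping genes may not be separable from those of the members.

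The genes most like each member over the 12 tumors were taken from 15042 other genes by Pearson's r, as a description. For Dlx3 they were Dnajc22, Tmem79 and Il17re (r = 0.99, 0.97 and 0.96), and 51 genes had an r of at least 0.9, while Dlx4 ranked 320th. For Dlx4 they were A730090H04Rik, Adad1 and Tmem40 (0.99, 0.94 and 0.92). For Dlx1 the third gene after Dlx2 and Dlx1as was Adck1 (0.92), and for Dlx2 the genes after Dlx1 were Sp4 (0.92), which encodes a zinc finger factor, and Rassf9 (0.92). Coch, which encodes cochlin, a protein of the inner ear matrix, was among the 3 nearest genes of Dlx5 (0.93), Dlx6 (0.95) and Msx2 (0.89), and Dlx6 was also followed by Lect1, a cartilage protein gene (0.96), and Gper1 (0.96). For Msx1 they were Msx1os (0.99), Obp2a (0.95) and Mir6991 (0.94).

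Other genes of jaw patterning, the neural plate border and the BMP pathway were described from fixed lists. Of 22 jaw patterning genes 17 were tested and 0 called by the F test in limma, with 1 at an unadjusted p under 0.05. Of 13 border genes 10 were tested and 0 called (1 unadjusted), and of 17 BMP genes 16 were tested and 0 called (0 unadjusted). None of these genes was called in a pairwise comparison. Median log2 differences of the jaw list were 0.0026 for cheek and 0.39 for meninges against retro-orbital tumors, beside -0.02 and 0.13 over all genes tested. Those of the border list were -0.07 and 0.16, and those of the BMP list 0.18 and 0.24.

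Levels per length of these regulators were far above those of the Dlx and Msx genes. The paired-type homeobox gene Prrx1 had a median of 67.8 RPKM (4.36 to 225) and Alx1, a frontonasal crest gene, 52.7 RPKM (0.52 to 222). At the border, Zic1 had a median of 39.0 RPKM (0.51 to 159), the Notch target Hes1 17.1 RPKM (8.12 to 34.9) and Tfap2c 5.29 RPKM (0.12 to 27.3). The BMP targets Id3 and Id2 had medians of 150 and 63.5 RPKM, and the BMP receptor gene Bmpr1a 49.7 RPKM (34.5 to 94.6).

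Markers of other cell types in which Dlx and Msx genes are known differed between the tumors. In bulk RNA, more cells of a type and more RNA per cell cannot be told apart. The 11 GABAergic interneuron markers summed to 5.22 to 42.6 RPKM in the retro-orbital tumors, 38.2, 571 and 446 in the cheek tumors and 30.4, 16.7 and 1200 in the meninges tumors. The sums were carried by single genes, by Npy in cheek 2 and 3 (569 and 444 RPKM) and by Sst in meninges 3 (1157 RPKM). The vestibular nerve tumor, highest in Dlx1 and Dlx2, had a sum of 28.4 RPKM, with Pvalb at 6.98 RPKM, the highest of the 12, Sst at 16.6 RPKM, the third highest, and 2 of the 11 markers (Gsx2 and Nkx2-1) at 0. The part of these cells in the Dlx1 and Dlx2 levels was not tested. The 7 keratinocyte markers summed to 107, 51.9 and 611 RPKM in the cheek tumors, 356, 4.70 and 12.6 in the meninges tumors, 8.76 in the vestibular and 3.93 in the trigeminal nerve tumor, so that Dlx3 was high with (cheek 1, meninges 1) and without (both nerve tumors, meninges 3) a high sum.

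The summed RPKM of the 8 astrocyte and oligodendrocyte markers moved with Dlx5, Dlx6 and Msx2. They summed to 462, 149 and 482 RPKM in the meninges tumors and to 8.04, 6.75, 333 and 46.3 in the retro-orbital tumors, and no cheek tumor exceeded 32.7 RPKM. The 3 tumors with the highest sums were the 3 with the highest Dlx5, Dlx6 and Msx2, as was true of 4 of the 8 markers singly (Gfap, Aqp4, Aldoc and Slc1a2), and the part of these cells in that result was not tested. The 8 osteoblast markers summed to 239 RPKM in cheek 1, 125 in retro-orbital 1 and 97.0 in retro-orbital 3, and to at most 39.5 in the other 9 tumors. Single genes made up most of these 3 sums, Ibsp in cheek 1 and retro-orbital 3 (189 and 65.0 RPKM) and Dmp1 in retro-orbital 1 (120 RPKM). The 8 neuron markers summed to 450 and 373 RPKM in cheek 2 and 3, the tumors highest in Msx1, and to 18.4 to 68.7 in the other 10, through the neurofilament gene Nefl (412 and 335 RPKM). Without Nefl they summed to 38.5 and 38.1 RPKM there, within the range of the other tumors (14.0 to 61.5). Singly, 2 of the 8 neuron markers were highest in these 2 tumors, Nefl and Tubb3. Tubb3 had 10.9 and 10.5 RPKM there, against 9.87 in retro-orbital 2, the next highest tumor. Syt1 was lowest in cheek 2 and cheek 3. The summed skeletal muscle markers were also highest in these 2 tumors, at 482 and 267 RPKM against 5.78 to 224 elsewhere, as were 3 of the 7 markers singly (Acta1, Ckm and Mylpf). The part of either in the Msx1 result was not tested.

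The other marker lists had their highest sums in other tumors than Msx1 or the Dlx1 and Dlx2 pair. Olfactory neuron markers summed to 9.44 to 110 RPKM, highest in meninges 1, with the olfactory marker protein gene Omp at no more than 0.581 RPKM. Leukocyte markers summed to 83.3 to 496 RPKM, highest in retro-orbital 2. Schwann cell markers summed to 31.4 to 208 RPKM, highest in meninges 2.

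**Figure D5:**
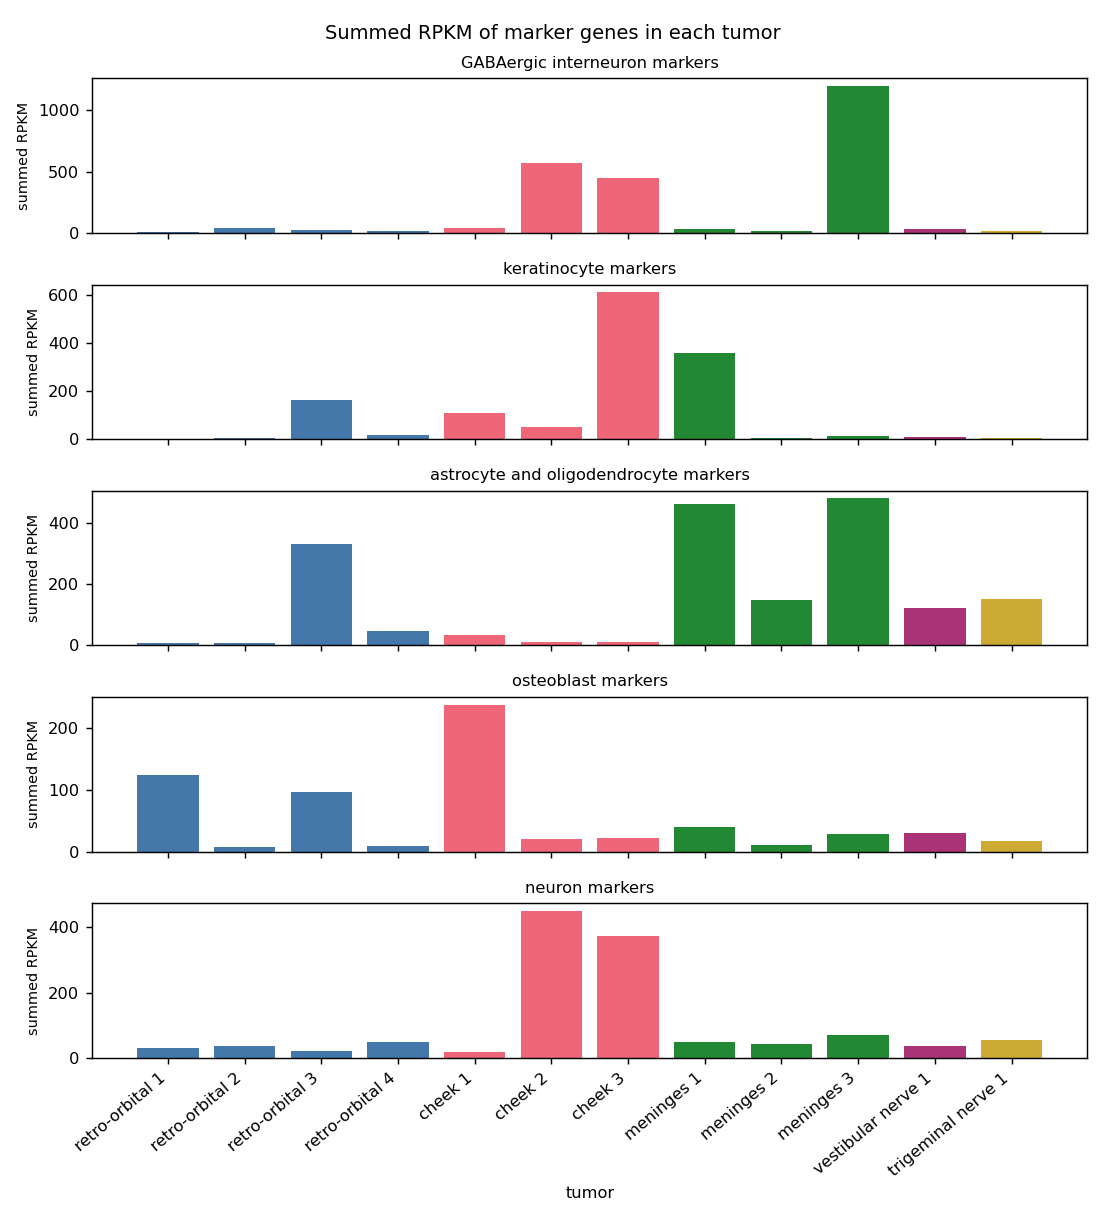
Summed RPKM (vertical axes, from 0, each with its own range) of 5 marker lists in each of the 12 tumors, coloured by location. The neuron sum is high in cheek 2 and cheek 3 through Nefl, and the astrocyte and oligodendrocyte sum is high in retro-orbital 3, meninges 1 and meninges 3.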

How the data were processed

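RNA of 12 frozen tumors was depleted of ribosomal RNA and sequenced as paired reads with a stranded kit. Per the labels and the study's methods, the authors used bcl2fastq 2.17, mapped the reads with STAR (mm10), used only unique alignments, assigned fragments to RefSeq genes by HTSeq and deposited the result as an RPKM value for each gene of a tumor. Fragment numbers were worked out from the step sizes among low values, to within 0.02 fragments of a whole number. A detection limit is worth 3 fragments and covers counting error only.

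Differences were tested with limma 3.58.1 (R 4.3.3, trended and robust prior) on log2(RPKM + 1), which understates changes of low genes, in 10 tumors. Genes needed 1 RPKM or more in 3 or more of these. P-values were Benjamini-Hochberg adjusted over all such genes, with a threshold of 0.05. Correlations used permutation tests (Python 3.11.15, numpy 2.4.6), exact for fewer than 10 tumors. Scripts were tested on simulated data. Alternatives were other pseudocounts, filters, scalings and priors, shared sample names as a random block, and tumors left out.

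The members, taken by name, and the lists were chosen with earlier results of these data known. The text names all 8 members, their antisense genes, the 3 genes with the highest median in each pathway list, of which none was called (1 is not reported here), and the 3 genes most like each member. Msx1os and the genes named from marker lists were chosen after their values were seen. A date stands where the symbol should be in 27 gene rows, which are not named.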

Additional observations from a re-analysis of the deposited data

Results flagged for a closer look

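In the 4 retro-orbital tumors, 1 tumor stood apart from the other 3 for 3 of the 8 Dlx and Msx genes, by a gap to its nearest neighbour that exceeded Dixon's 95% limit for 4 samples, as a share of the whole range. It was retro-orbital 3 in each, the most deeply sequenced tumor, with the highest value. The gap was 0.908 of the range for Dlx5 (1.14 RPKM), 0.881 for Dlx6 (1.16 RPKM) and 0.868 for Msx2 (1.07 RPKM). Among 5 antisense genes, Dlx6os1 was flagged in the same tumor (0.876 of the range, 0.631 RPKM), Dlx1as in retro-orbital 2 (0.833 of the range, 1.69 RPKM) and Dlx6as2 in retro-orbital 1, the one retro-orbital tumor with any fragment of it (gap 1 of the range, 0.0818 RPKM from 3 fragments). These are 6 of 13 genes. Chance flags about 1 in 20 only where values are normally distributed, and RPKM near 0, some of them exactly 0, need not follow that rate. The genes are also not independent, since Dlx5, Dlx6, Msx2 and Dlx6os1 moved together over the tumors. The summed RPKM of the 8 astrocyte and oligodendrocyte markers was also highest in retro-orbital 3 among the retro-orbital tumors, as were 5 of the markers singly, with Mbp, Mag and Mog as the exceptions. Groups of 3 and single tumors were not examined in this way.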

How the results depend on the processing

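No paired analysis was possible because the labels give no replicate numbers, and the numbers used here only name the tumors. The counts of called members stayed at 0 under other pseudocounts, filters, scalings and priors. With the filter of 1 RPKM in at least 5 tumors, only 3 members were tested. The counts also stayed at 0 with 1 tumor per shared name, where 4 members were tested and 0 of all 14271 genes were called. Dlx5, Dlx6 and Msx2 were in neither of these fits, so a count of 0 there says nothing about them. With the shared names as a random block, the counts were 3 (F test, with 2802 of all 14745 genes called) and 5 (cheek minus meninges, with 4243 of all genes called). Leaving out single tumors gave 0 to 1 in the F test and in both cheek comparisons, where the 1 was Msx1 without cheek 1, and 0 in meninges minus retro-orbital. Without cheek 1, calls among all 14530 genes numbered 198 in the F test, 147 in cheek minus retro-orbital and 527 in cheek minus meninges. Dlx5, Dlx6 and Msx2 dropped out of the test without retro-orbital 3, meninges 1 or meninges 3. Quantile normalization moved the median difference of all genes from -0.16 to 0.01 in cheek minus meninges and from 0.13 to 0.02 in meninges minus retro-orbital. The r of Dlx1 and Dlx2 was 0.84 to 0.98 when single tumors were left out, that of Dlx5 and Dlx6 0.87 to 0.96, and that of Dlx3 and Dlx4 0.76 to 0.88, and these 3 pairs kept an unadjusted permutation p under 0.05 under each alternative planned. Among the 7 tumors with under 2 RPKM of Dlx3, an alternative chosen after seeing the data, as were those for Msx2 with Dlx5 and Dlx6, the r of Dlx3 and Dlx4 was 0.55 and no longer passed. The r of Msx1 and Msx2 was 0.00504 within locations, and -0.242 to 0.0554 with single tumors left out, turning positive without meninges 3.

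Some differences that were not called turned sign. Under the random block Dlx1 became 0.54 (cheek minus retro-orbital), -0.32 (meninges minus retro-orbital) and 0.86 (cheek minus meninges, then called, with a limma adjusted p of 0.0365), Dlx2 became 0.0695 and 0.58 in the cheek comparisons, and Dlx6 0.00213 in cheek minus retro-orbital. In meninges minus retro-orbital, Dlx1 was -0.0812 after quantile normalization. With single tumors left out it was -0.15 to 0.31 there, negative without retro-orbital 1 or meninges 2, and Dlx2 was -0.44 to 0.0868, positive without retro-orbital 3. Dlx3 was 0.0853 in cheek minus meninges with 1 tumor per shared name. In cheek minus retro-orbital with single tumors left out, Dlx3 was -0.20 to 1.54, negative without cheek 1, and Dlx5 -0.18 to 0.27, negative without cheek 1 or retro-orbital 2. The cause was not tested. The 13206168 fragments of cheek 3 and the few fragments of Dlx4 and Dlx6 limit what could be detected.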
